A study of Homo sapiens with 36 samples.

Results

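The promoters and surroundings of 9 immediate early response genes were examined for polymerase, histone marks, Mediator and Jun-family binding in lung adenocarcinoma cells and in bronchial epithelial cells. The genes, EGR1, EGR3, IER2, IER3, IER5, MCL1, SRF, ZFP36 and ZFP36L1, were taken by name from 20033 protein-coding genes of GENCODE 44 on chromosomes 1 to 22, X and Y. Their peaks were those that touched a window of 3 kb to each side of any annotated start, and their Jun-family regions were those within 100 kb of a start. The rule itself uses no measured value, although the genes were named with earlier results of these data known.

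The study profiled 36 samples of cultured cells by ChIP-seq. A549 is an established human lung adenocarcinoma line, and BEAS-2B (B2B) is an immortalized human bronchial epithelial line that served as the non-cancerous counterpart, so each condition is a single line; no treatment is labelled. In both lines the targets were RNA polymerase II (pol II), H3K4me3, H3K27ac, the Mediator subunit Med1, and the Jun-family proteins JunB, Jun and JunD; CTCF and the cohesin subunit Rad21 were used here in B2B. Each of the 16 peak lists pools 2 replicates that the authors merged before peak calling. The study calls them biological replicates. There is therefore no replicate error, no difference below has a test, and all values describe single pooled lists, in which the share of cells bound and the binding per cell cannot be told apart.

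Immediate early genes are transcribed within minutes of a growth factor, stress or cytokine signal, without new protein synthesis. Many carry a serum response element, bound by SRF (serum response factor) together with ternary complex factors such as ELK1 or with the actin-regulated cofactors MRTFA and MRTFB. Jun proteins pair with each other or with Fos proteins to form AP-1, which binds the 7-base site TGACTCA, and genes of the AP-1 subunits are themselves part of the response.

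The sequences that carry these elements are shown first. In the 250 bases before any annotated start, a CArG box, the core of the serum response element, was found on either strand in 5 of the 9 genes (EGR1, EGR3, IER2, MCL1 and SRF), against 5.05% of protein-coding genes. At the canonical start alone it was found in 4 of 9 (EGR1, EGR3, MCL1 and SRF) and in 1.12% of coding genes. EGR1 and SRF each held 2 boxes, in capitals in the 250 bases before their starts (RefSeq, GRCh38.p14, plus strand, chr5:138465229-138465478 and chr6:43171019-43171268, neither in an annotated exon). The EGR1 boxes began 105 and 83 bases before the start, and those of SRF 30 and 10 bases before it.

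EGR1 promoter: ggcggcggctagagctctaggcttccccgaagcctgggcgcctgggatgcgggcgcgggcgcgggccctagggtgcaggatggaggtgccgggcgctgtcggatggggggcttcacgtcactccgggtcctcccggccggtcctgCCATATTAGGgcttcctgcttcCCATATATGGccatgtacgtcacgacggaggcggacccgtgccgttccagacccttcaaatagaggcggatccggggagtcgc
SRF promoter: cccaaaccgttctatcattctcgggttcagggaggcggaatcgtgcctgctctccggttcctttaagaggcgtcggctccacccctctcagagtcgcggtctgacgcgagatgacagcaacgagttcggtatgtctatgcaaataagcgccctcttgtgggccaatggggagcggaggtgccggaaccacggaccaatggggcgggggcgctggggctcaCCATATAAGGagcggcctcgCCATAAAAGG

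The AP-1 site TGACTCA was in none of the 9 promoters in this window (14.5% of coding genes), and the CRE site TGACGTCA, bound by CREB and ATF proteins, in none either (3.60%). The 5 bases GCGTG of the EGR site were found before a start of EGR3, IER2 and ZFP36, against 64.7% of coding genes, so this short word was not more common in the members.

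AP-1 sites were found under some Jun-family summits. The strongest A549 region held one at 6 of the 9 genes and none at EGR1, IER2 and ZFP36L1. The following 101 bases, chosen to show the site, are centred on the Jun summit of the strongest Jun-family region of a member (hg38, plus strand), with the AP-1 site (TGACTCA, or TGAGTCA where it lies on the other strand) in capitals; for MCL1 the strongest B2B region is given too, as an example without the site.

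ZFP36, A549, chr19:39403934-39404034: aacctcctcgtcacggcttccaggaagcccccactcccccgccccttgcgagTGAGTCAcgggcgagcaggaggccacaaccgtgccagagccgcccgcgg
IER3, A549, chr6:30769731-30769831: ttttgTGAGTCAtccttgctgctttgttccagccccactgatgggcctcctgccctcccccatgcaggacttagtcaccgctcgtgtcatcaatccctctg
IER5, A549, chr1:181112596-181112696: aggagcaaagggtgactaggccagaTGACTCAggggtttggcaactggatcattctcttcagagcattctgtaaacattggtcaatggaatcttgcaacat
MCL1, A549, chr1:150604860-150604960: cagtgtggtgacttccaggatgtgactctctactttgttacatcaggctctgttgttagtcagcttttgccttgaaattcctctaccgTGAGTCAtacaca
SRF, A549, chr6:43174795-43174895: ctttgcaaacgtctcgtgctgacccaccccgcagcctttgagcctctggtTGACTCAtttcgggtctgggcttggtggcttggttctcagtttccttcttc
MCL1, B2B, chr1:150568383-150568483: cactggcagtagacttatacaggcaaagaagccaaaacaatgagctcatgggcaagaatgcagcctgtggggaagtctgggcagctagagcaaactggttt

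The site of SRF begins at the summit itself and lies in an intron of SRF, the ZFP36 site 2 bases after the summit and in an exon of a long non-coding RNA upstream of ZFP36. The sites of IER5, MCL1 and IER3 begin 25 bases before, 38 bases after and 45 bases before their summits. The B2B region of MCL1, in an intron of MCL1, held no AP-1 site within 50 bases of its summit.

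The lists differ in length and in background, and these differences touch the results. A549 held 28068 JunB, 35602 Jun and 9639 JunD peaks, and B2B 8563, 45047 and 8597. The A549 H3K27ac list ends on chromosome 13 and the Med1 lists of both lines on chromosome 15, so IER2 and ZFP36 (chromosome 19) were not scored for these 3 lists, nor ZFP36L1 (chromosome 14) for A549 H3K27ac. The A549 pol II list ends early on chromosome 20, after all 9 genes in chromosome order. Sequencing depth was not given; the pileup (reads stacked at a summit) and the local background of each peak were solved from its fold enrichment and p-value, and each is given in multiples of the lowest background of its list. Epithelial keratin genes KRT8 and KRT18 had pol II and H3K4me3 peaks in both lines. The deleted 9p21 genes CDKN2A and CDKN2B had none in A549 and at least 5 of each mark in B2B.

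**Figure D1:**
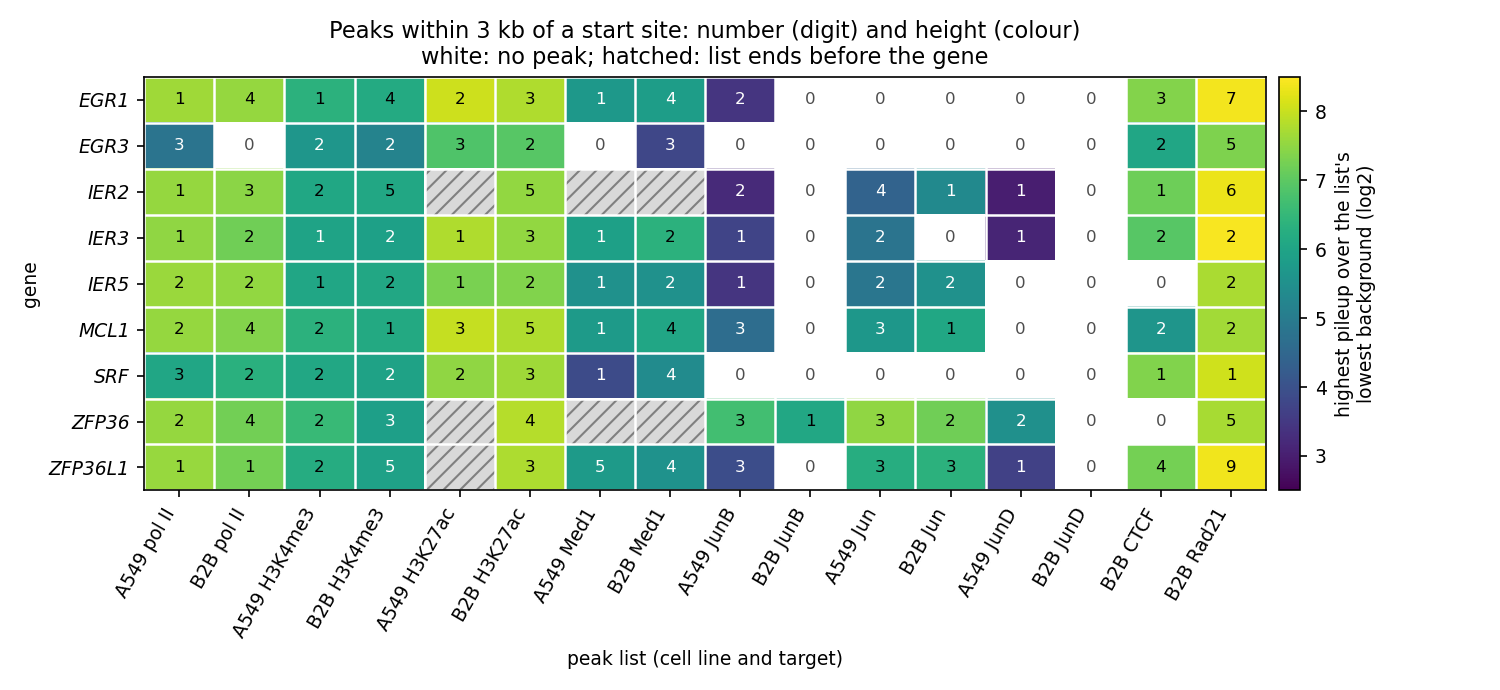
Peaks within 3 kb of a start in each of the 16 lists (columns) for the 9 genes (rows). The digit is the number of peaks, the colour the highest pileup over the lowest background of that list on a log2 scale. Pol II, H3K4me3, H3K27ac and Med1 were present in both lines at every gene scored apart from EGR3 (no pol II in B2B, no Med1 in A549), whereas B2B JunB held 1 peak and B2B JunD none; hatched cells lie past the end of a list.

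EGR1 and EGR3 encode zinc-finger transcription factors of the same family. EGR1 carried the highest pol II pileup of the A549 list, 332 reads at 24 bases after its start. No peak of the 45938 was higher, in a list that ends early on chromosome 20. In B2B the pileup at its start was 317 reads, and 5 of 25234 peaks were higher. The deposited fold enrichments at these summits were 104 and 5.95, with local backgrounds of 2.21 and 52.5 reads. EGR1 thus ranked at or near the top of both pol II lists by height, while its fold enrichments and local backgrounds stood far apart.

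EGR3 was the weakest member. Its start held 3 pol II peaks in A549, the highest of 46 reads (12.9-fold), and none in B2B. H3K4me3 was present in both lines, with 122 reads in A549 and 90 in B2B. H3K27ac reached 145 reads in A549 and 177 in B2B, with summits at −1807 and −1793 bases from the start (upstream negative). Med1 was listed only in B2B, in 3 peaks of at most 18 reads (4.77-fold). No Jun-family protein had a peak within 3 kb of EGR3 in any of the 6 lists.

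SRF, itself the factor that drives many of these genes, had pol II pileups of 110 reads in A549 and 133 in B2B, and H3K27ac pileups of 227 and 287. Med1 at its start reached 18 reads in A549 (5.47-fold) and 55 reads in B2B (18.4-fold), at local backgrounds of 2.47 and 2.04 reads. These 2 Med1 lists had nearly the same lowest background, 1.24 and 1.31 reads, and the same median pileup of 19 reads. SRF was the only member with no promoter peak of any Jun protein besides EGR3. Its nearest Jun-family region lay 3.43 kb downstream within the gene, with JunB (8.82-fold) and Jun (15.4-fold) in A549 and Jun (4.57-fold) in B2B.

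IER2, IER3 and IER5 are short genes named for their rapid induction. Pol II at IER2 reached 308 reads in A549 and 295 in B2B, at IER3 299 and 248, and at IER5 323 and 306. All 3 genes stood at or above the percentile 97.5 of their pol II list by pileup in both lines. IER3, a stress-induced regulator of cell survival, held the largest Med1 pileups of the members in both lines, 74 and 108 reads, at 1647 and 1623 bases downstream of the start. The IER2 window also takes in the start of STX10 and the IER3 window that of FLOT1, so peaks there cannot be given to a single gene.

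MCL1, an anti-apoptotic member of the BCL2 family, had pol II pileups of 312 reads in A549 and 278 in B2B, H3K27ac pileups of 316 and 318 and Med1 pileups of 67 and 87. ZFP36 and ZFP36L1 encode zinc-finger proteins that bind AU-rich messenger RNAs and promote their decay. Their pol II pileups were 308 and 251 reads for ZFP36 and 318 and 252 for ZFP36L1, A549 first. H3K4me3 at ZFP36 reached 227 and 147 reads.

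Counted over the members, pol II was present at 9 of 9 in A549 and 8 of 9 in B2B, where 69.6% and 50.9% of coding genes had a peak. Each share is over the coding genes that the list covers, 17906 for A549 pol II and 20033 for B2B pol II. H3K4me3 was present at 9 of 9 in both (73.7% and 62.7%). H3K27ac was present at 6 of 6 scored genes in A549 and 9 of 9 in B2B (73.5% and 64.9%), and Med1 at 6 of 7 and 7 of 7 (54.7% and 61.1%). With backgrounds this high, these counts say little about the members in particular.

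The pol II pileups of most members lay close to the top of their lists, with a median percentile of 99.0 in A549 and 98.4 in B2B. The median percentiles were 87.7 and 95.8 for H3K27ac, 80.5 and 85.3 for H3K4me3, and 96.0 and 97.2 for Med1. The highest pol II pileup of any peak was 332 reads in A549 and 319 in B2B, and that of H3K27ac 356 and 371, and duplicate removal limits how far a pileup can rise, so like heights near the top do not show equal binding. The median of the highest pol II pileup over members with a peak was 186 times the lowest background in A549 and 158 times in B2B. For H3K27ac it was 200 (6 genes) and 199 times (9 genes), for H3K4me3 68.7 and 62.6 times, and for Med1 53.0 and 47.3 times. The median local background at these peaks was 1.65 times the lowest in A549 and 20.8 times in B2B for pol II, 1.69 and 21.2 times for H3K4me3, and 2.09 and 22.7 times for H3K27ac. For Med1 the local background lay between 1.56 and 3.41 times the lowest over both lines. The higher B2B background of these 3 targets was also present near coding starts over the genome. At H3K4me3 peaks near coding starts the median was 13.7 times the lowest in B2B and 1.43 times in A549, and at those elsewhere 1.77 and 1.34 times. Among listed Jun-family peaks the lines were closer near coding starts. The medians were 1.99 and 1.51 times for Jun, 1.79 and 1.32 for JunB, and 1.47 and 1.62 for JunD, B2B first. Sites without a listed peak do not enter these medians. Near coding starts B2B listed 1155 JunB and 698 JunD peaks, against 7923 and 3810 in A549. The medians therefore do not give the background at starts where B2B listed no Jun-family peak. At the Jun peaks of the members the median was 7.73 times in B2B and 2.44 times in A549. Fold enrichments of pol II, H3K4me3, H3K27ac and the Jun family are therefore given as deposited. Where values of both lines stand side by side, they are not read as a difference in binding. The source of the B2B background was not tested.

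**Figure D2:**
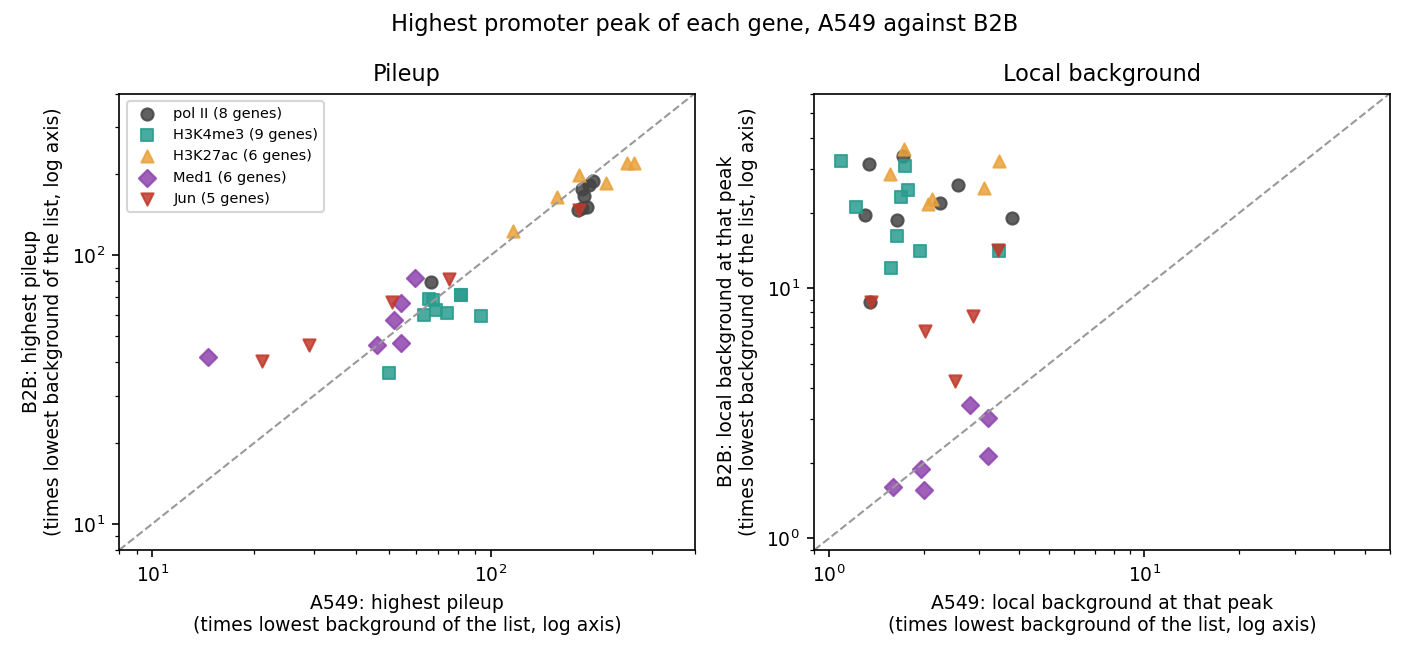
Highest promoter pileup of each member (left) and the local background at that peak (right), B2B against A549, both in multiples of the lowest background of the list on log axes; the dashed line marks equal values. Pileups of pol II, H3K4me3 and H3K27ac lie near the line, while their backgrounds lie far above it; Med1 lies near the line in both panels except for the SRF pileup, which is higher in B2B.

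Jun-family binding at the promoters was listed more often in A549. JunB had a promoter peak at 7 of 9 members in A549 (EGR1, IER2, IER3, IER5, MCL1, ZFP36 and ZFP36L1; 31.1% of coding genes) and at ZFP36 alone in B2B (5.28%). Jun had one at 6 of 9 in A549 (IER2, IER3, IER5, MCL1, ZFP36 and ZFP36L1; 38.2%) and at 5 of 9 in B2B, the same genes without IER3 (25.4%). JunD had one at 4 of 9 in A549 (IER2, IER3, ZFP36 and ZFP36L1; 17.8%) and at 0 of 9 in B2B (3.21%). JunB was listed in A549 alone at 6 members (26.7% of coding genes), Jun at 1 (19.3%) and JunD at 4 (16.2%). No member had a Jun-family protein at its promoter in B2B and not in A549, a class that held 0.953% (JunB), 6.50% (Jun) and 1.57% (JunD) of coding genes.

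The JunB count changed with list length. With the A549 and B2B lists of each protein trimmed to equal length by p-value, JunB remained at 2 of 9 members in A549, MCL1 and ZFP36, and at 1 in B2B, against 9.38% and 5.28% of coding genes. JunD remained at 2 of 9 in A549, ZFP36 and ZFP36L1 (15.7%), and 0 in B2B (3.21%), and Jun at 6 in A549 (38.2%) and 5 in B2B (22.4%).

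**Figure D3:**
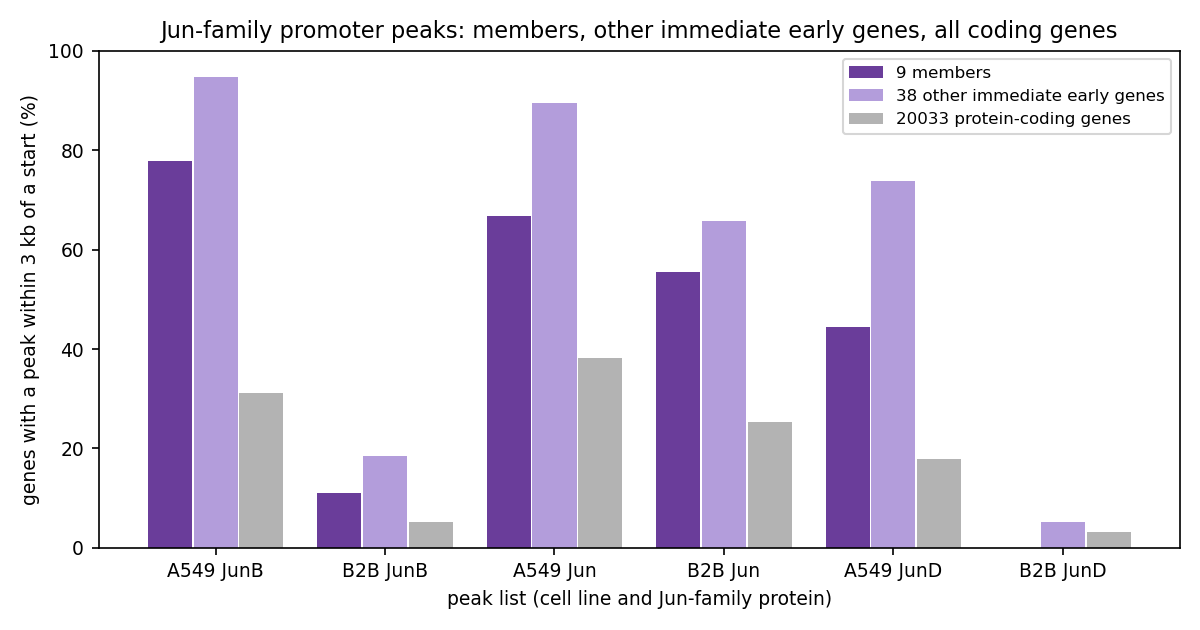
Share of genes with a peak within 3 kb of a start in the 6 Jun-family lists, for the 9 members, 38 other immediate early genes and 20033 protein-coding genes. In 5 of the 6 lists the bar of the members stands above that of all coding genes and below that of the other immediate early genes; in B2B JunD no member has a peak.

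The other immediate early genes, a list of 38 that holds FOS, JUN, ATF3, KLF6, MYC and the DUSP phosphatases, also had more Jun-family peaks in A549 than in B2B. JunB was present at 36 of 38 in A549 and 7 of 38 in B2B, Jun at 34 and 25, and JunD at 28 and 2. All 3 proteins were listed at 28 of these 38 genes in A549, at 4 of the 9 members and at 13.7% of coding genes. Likeness was taken as the same presence or absence in each of the 6 Jun-family lists. IER2 and ZFP36L1 had the pattern of 15 of the 38 genes (first in the alphabet BHLHE40, BTG2 and DUSP1). ZFP36, with a peak in 5 lists, was like 5 genes (first ATF3, DUSP5 and KLF10), IER3 like 6 (first DUSP4, ID1 and KLF2), and IER5 and MCL1 like CCN1 and TIPARP. EGR1, which had JunB in A549 only, was like its relative EGR2, and EGR3 and SRF, with no Jun protein, like DUSP2 and EGR4. The pattern without any Jun protein was that of 50.6% of coding genes, that of IER2 and ZFP36L1 of 5.27%, ZFP36 1.10%, IER3 5.79%, IER5 and MCL1 5.13%, and EGR1 2.71%.

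Of the 5 SRF partners (ELK1, ELK3, ELK4, MRTFA and MRTFB), 2 had JunB and 3 had Jun in A549, and 0 and 3 in B2B. Of 6 relatives (NAB1, NAB2, IER5L, ZFP36L2, BCL2L1 and BCL2A1), 5 had JunB and 5 had Jun in A549, and 0 and 1 in B2B.

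ZFP36 held the strongest promoter site. About 2.86 kb before its first start, JunB, Jun and JunD pileups in A549 were 211, 181 and 79 reads (25.6-, 41.2- and 11.5-fold). In B2B the same site held 134 reads of JunB (3.93-fold, local background 33.4 reads) and 171 of Jun (9.84-fold, background 16.5 reads), and no JunD peak. The Jun pileup was 182 times the lowest background in A549 and 147 times in B2B. Its sequence, shown above, places the AP-1 site within 2 bases of the Jun summit. A further site downstream had 84, 95 and 31 reads in A549 and, for Jun, 54 reads in B2B.

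The other Jun peaks common to both lines were lower. At ZFP36L1, about 1.6 kb downstream of the outermost start, Jun reached 75 reads in A549 (25.2-fold) and 95 in B2B (10.8-fold). At MCL1, about 1.0 kb downstream, the Jun pileups were 51 and 78 reads (13.5- and 7.90-fold). At IER5, about 1.55 kb upstream, they were 29 and 54 reads (8.54- and 9.24-fold). At IER2 they were 21 and 47 reads (9.33- and 4.28-fold). In multiples of the lowest background, the B2B pileup was the higher of the pair at all 4 of these genes, 81.6 against 75.3, 67.0 against 51.2, 46.4 against 29.1 and 40.4 against 21.1 in the same order. The pileup includes the local background, which was 4.25 to 8.77 times the lowest at these B2B peaks and 1.36 to 2.86 times at the A549 peaks.

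At the start of EGR1, JunB reached 22 reads in A549 (6.48-fold) and 17 reads at a second peak 1.3 kb upstream (5.25-fold). At IER3 the A549 pileups were 27 reads for JunB, 28 and 25 for Jun and 15 for JunD. At IER2 they lay between 14 and 21 reads. By fold enrichment, the highest A549 promoter peak of a member had a median percentile of 45.1 among all peaks of its list for JunB, 60.8 for Jun and 34.4 for JunD. By pileup the median percentiles were 57.4, 73.2 and 34.2.

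Over the 7 genes there were 28 promoter peaks of a Jun protein listed in A549 and overlapped by no B2B peak of the same protein, with pileups of 14 to 84 reads. The B2B background at each was read from the nearest B2B summit of pol II, H3K4me3, H3K27ac, CTCF or a Jun protein within 200 bases, a rule set after the values were seen. Such a summit was found for 26 of the 28, at a median gap of 28.5 bases, and the background there stood at 4.79 to 35.0 times the lowest. Where B2B Jun and B2B pol II summits lay within 50 bases of each other, the background multiples of the lists had a median ratio of 1.00 over 1747 pairs, most of them at low background (median 1.69 times the lowest for Jun). For B2B Jun and B2B Med1 summits the median ratio was 1.69 over 1711 pairs, with the higher background in Jun. Med1 and Rad21 were not among the lists from which a background was read. At the background so read, a B2B peak would have needed 25 to 106 reads to be listed. Scaled by the lowest background of each list, the A549 pileup reached that level at 4 of the 26 peaks, JunB at 2 sites of MCL1 and JunB and JunD at ZFP36. This sets total pileups side by side. The level needed in B2B includes the higher background there, while the A549 pileup stands on its own lower one. Signal above background was not compared, and by that measure the count could be higher than 4. At the JunB site of MCL1 with 51 reads in A549, 34 reads would have been enough in B2B, and no JunB peak was listed. The other 22 of the 26 peaks did not reach the level needed, and some of them could not. At both JunB peaks of EGR1 the A549 pileup, 8.30 and 10.7 times the lowest, lay below the B2B background alone, 35.0 and 31.3 times. At such peaks the comparison was settled by the background and says nothing about binding in B2B. At the start of EGR1 the 22 reads of JunB in A549 stand against 97 reads needed in B2B, with the background read from pol II at 31.3 times the lowest. The B2B Med1 and Rad21 summits near that start, both left out by the rule, stood at 1.60 and 35.7 times, so the level depends on the lists admitted. At these 22 peaks, if the background read nearby applies, absence of the protein in B2B and a total pileup of the A549 height cannot be told apart. Whether the A549 signal on top of the B2B background would have been listed was not tested.

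**Figure D4:**
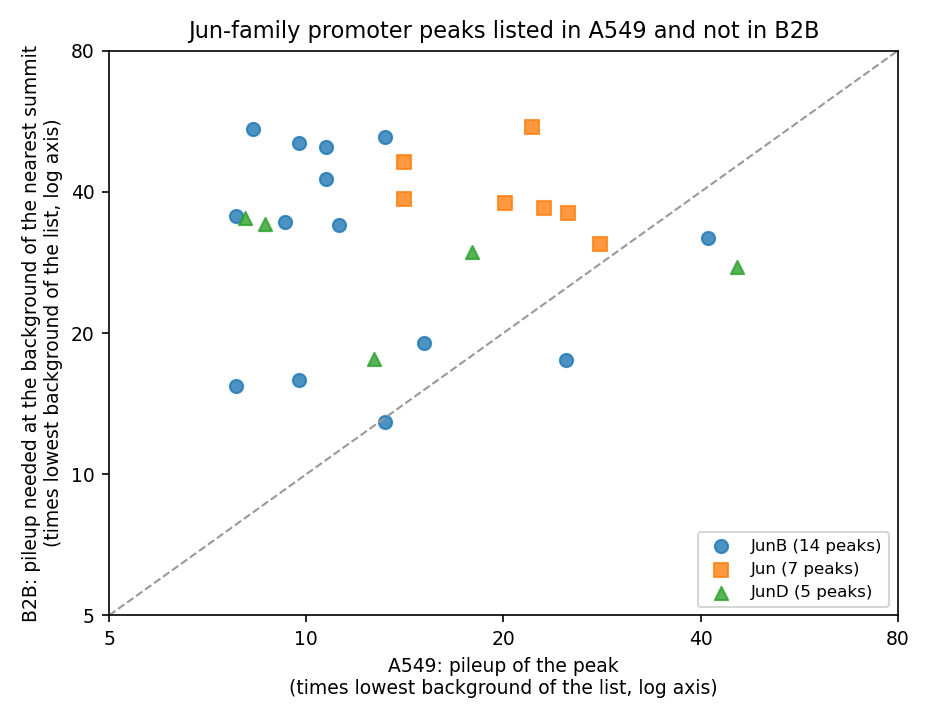
The 26 Jun-family promoter peaks listed in A549 and not in B2B that had a B2B summit within 200 bases: pileup in A549 (horizontal) and the pileup a B2B peak would have needed at the background of that nearest summit (vertical), in multiples of the lowest background of each list on log axes. The dashed line marks equal values, and 4 peaks lie below it. Both axes give total pileups, and the B2B values include the higher background there, which alone exceeds the A549 pileup at some peaks.

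Within 100 kb of the 9 genes, the 6 Jun-family lists merged into 127 regions of 72011 in the genome. Of these, 35 (27.6%) had a peak in both lines, 58 (45.7%) in A549 alone and 34 (26.8%) in B2B alone, against 26.5%, 34.1% and 39.4% of all Jun-family regions. Without the 21 regions within 3 kb of a start, 27 were shared, 46 came from A549 only and 33 from B2B only. JunB, Jun and JunD met at 19 regions in A549 (15.0% against 9.26% of all regions) and at 8 in B2B (6.30% against 6.07%). Among only the regions with a peak in the same line, the shares were 20.4% against 15.3% in A549 and 11.6% against 9.20% in B2B. The shared share was thus near the genome-wide share, with more A549 and fewer B2B regions than over the genome. Of the 58 regions in A549 alone, 55.2% overlapped a B2B H3K27ac peak and 43.1% a B2B pol II peak, against 26.2% and 20.3% of all such regions. The classes rest on listed peaks, and whether the B2B background changes them was not tested. Other coding genes also start within 100 kb, 10 of them at ZFP36 and 7 at IER3. Over the genome, 10177 A549 Jun peaks lay near coding starts and 25425 elsewhere, against 7240 and 37807 in B2B. Shares around other genes were not taken, so the larger A549 share cannot be called particular to the members.

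**Figure D5:**
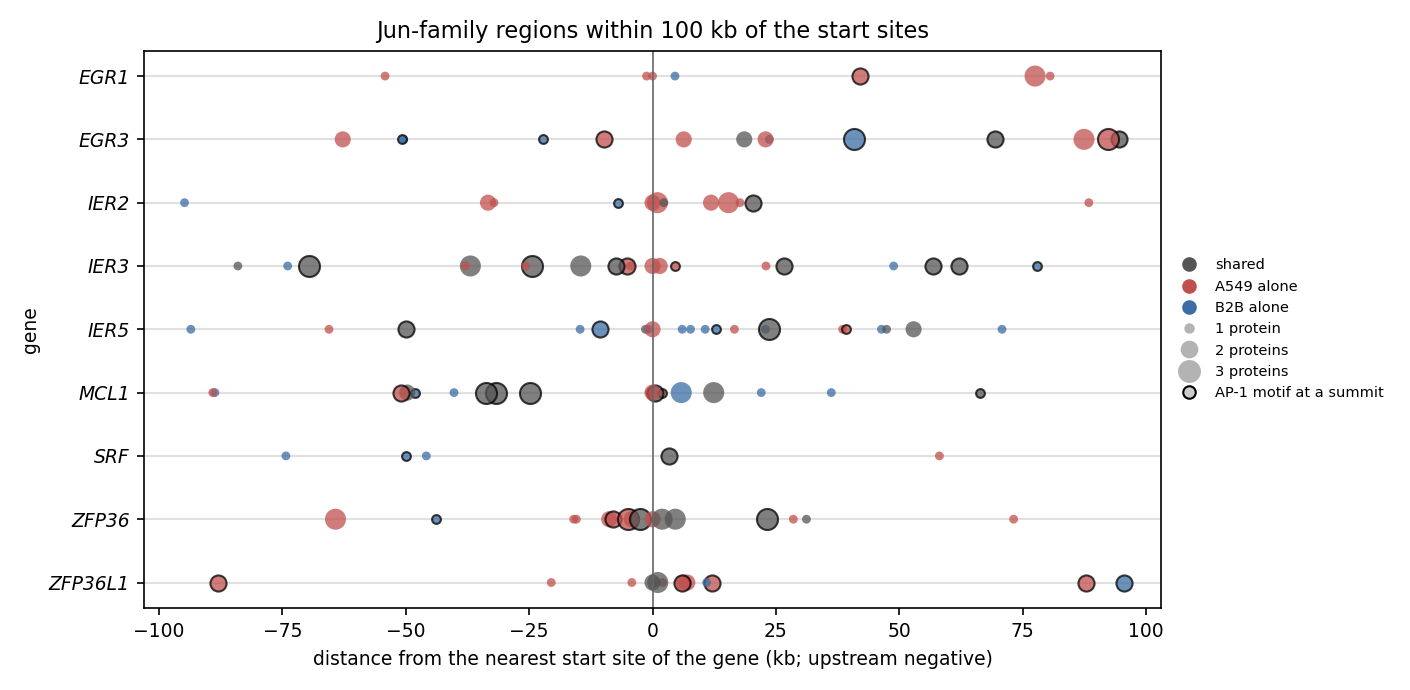
Jun-family regions within 100 kb of each member, by distance from the nearest start in kb (upstream negative). Colour gives the class (dark grey shared, red A549 alone, blue B2B alone), size the largest number of Jun proteins in a line, and a black rim an AP-1 site within 50 bases of a summit. IER3 shows a run of shared regions upstream, ZFP36 a group around its start, and IER5 a run of B2B regions downstream.

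The genes differed in their surroundings. IER3 had the most shared regions, 9 of 20, and 4 of the 8 B2B regions with all 3 proteins. Of these, 3 lay 14.5, 24.5 and 36.9 kb upstream of its start, in the major histocompatibility region of chromosome 6. At 24.5 kb the JunB, Jun and JunD pileups were 141, 136 and 47 reads in A549 and 116, 152 and 55 in B2B, so the lines were close in height at this site. At 14.5 kb Jun reached 177 reads in B2B (60.4-fold), with JunB and JunD peaks beside it, and 27 reads in A549 (11.2-fold) with no other Jun protein.

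IER5 had the most B2B regions, 11 of 21. A run of 4 downstream held Jun alone, the nearest at 24.6-fold and the third, 10.7 kb from the start, at 22.1-fold. All 4 overlapped B2B pol II and CTCF peaks, and none overlapped an A549 peak of pol II, H3K4me3, H3K27ac or Med1. Its strongest region was common to both lines, 23.7 kb downstream: JunB, Jun and JunD pileups were 146, 186 and 75 reads in A549 and 62, 119 and 35 in B2B, and it overlapped H3K27ac, Med1 and pol II peaks in both lines. This was the highest summed fold enrichment of any member region in A549 (92.6).

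MCL1 had 18 regions, 7 of them shared. Its strongest in A549 lay 24.8 kb upstream within ENSA, with pileups of 106, 120 and 38 reads in A549 and 31, 85 and 25 in B2B. Its strongest in B2B lay 5.81 kb downstream of the nearest start and was in B2B alone, with 30 reads of JunB, 156 of Jun (47.5-fold) and 27 of JunD. Pol II, H3K4me3, H3K27ac and Med1 peaks of B2B overlapped it, and of the same 4 targets in A549 only pol II. The B2B pol II peak with its summit there had a fold enrichment of 27.1 at a background of 1.85 times the lowest, the highest pol II fold enrichment of any member in B2B.

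ZFP36 had 16 regions, 10 of them in A549 alone and 1 in B2B alone, and 6 with all 3 proteins in A549 and 0 in B2B. ZFP36L1 had 14 (9 in A549 alone), IER2 12 (8 in A549 alone) and EGR3 14 (6 in A549 alone, 5 in B2B alone). EGR3 had none within 3 kb, and its strongest regions lay 92.2 kb downstream in A549 and 40.9 kb downstream, within BIN3, in B2B. Each held all 3 proteins of that line, and no Jun-family peak was listed there in the other. EGR1 had 7 regions, none shared. The strongest, 77.5 kb downstream and overlapping ETF1, had JunB, Jun and JunD pileups of 37, 74 and 36 reads in A549 and no listed peak in B2B. The only B2B region of EGR1 was a JunB peak of 2.60-fold. The strongest A549 regions of EGR3 and EGR1 both overlapped B2B pol II, H3K4me3, H3K27ac, Med1 and Rad21 peaks. The B2B background was not read there, so a missing B2B peak does not show absence of the proteins. SRF had the fewest, 5, of which 1 was shared.

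The AP-1 site was found within 50 bases of a summit in 44 of the 127 regions (34.6% against 37.1% of all regions). It was present in 19 of 35 shared regions (54.3%), 14 of 58 regions of A549 alone (24.1%) and 11 of 34 of B2B alone (32.4%), and genome-wide in 56.8%, 31.0% and 29.2%. By distance, 3 of 21 regions within 3 kb of a start held it (14.3%), 12 of 36 at 3 to 20 kb (33.3%), 15 of 36 at 20 to 50 kb (41.7%) and 14 of 34 beyond (41.2%). The share was thus lowest in the regions nearest the starts. Shares by distance were not taken over all Jun-family regions, so this cannot be called particular to these genes.

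The protein make-up of the regions also differed by line. In A549, JunB and Jun without JunD made up 37 of 93 member regions (39.8% against 30.6% of all A549 regions) and Jun alone 22 (23.7% against 33.0%). In B2B, Jun alone made up 53 of 69 (76.8% against 74.9%) and JunB with Jun 7 (10.1% against 6.66%).

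CTCF and Rad21 organize chromatin loops, and both had peaks at most members in B2B. CTCF had a promoter peak at 7 of 9, all but IER5 and ZFP36 (50.1% of coding genes), and Rad21 at 9 of 9 (67.9%). The CTCF pileup was 254 reads at EGR1, where 199 of 61225 peaks were higher, 249 at SRF and 230 at ZFP36L1. The peaks at EGR1 and SRF stood on backgrounds of 35.0 and 30.7 times the lowest, and that at ZFP36L1, 7166 bases downstream of its outermost start, on 6.28 times.

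At the Jun-family regions the overlap with CTCF and Rad21 was counted by class. Of the 34 regions in B2B alone, 19 overlapped a CTCF peak (55.9% against 26.5% of all such regions), 5 a Rad21 peak (14.7% against 5.82%), and 16 had CTCF without Rad21 (47.1% against 21.9%). Of the 35 shared regions, 17 overlapped CTCF (48.6% against 39.7%), 19 Rad21 (54.3% against 15.4%), and 4 had CTCF without Rad21 (11.4% against 28.5%). Among the 58 regions in A549 alone, 14 overlapped B2B CTCF (24.1% against 13.2%), 31 Rad21 (53.4% against 25.5%), and 1 had CTCF without Rad21 (1.72% against 3.73%). Over the whole CTCF list, 36.3% of peaks overlapped a Rad21 peak.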

How the data were processed

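ChIP-seq reads were aligned by the authors with Bowtie2 (2.4.4) to hg38, duplicates were removed, biological replicates were merged and scaled to CPM across the lines with SAMtools (1.13), and peaks were called with MACS2 (2.2.7.1). Whether the scaled reads entered peak calling is not stated; the solved pileups are whole reads and are given as reads and in multiples of the lowest background of their list. Caller options and the control used are not given in the sources used here. The deposited lists hold a fold enrichment (a ratio of pileup to local background) and a −log10 p-value and q-value per peak. Removal of duplicates limits the pileup that a narrow peak can reach.

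Peaks were placed on GENCODE 44 starts (window 3 kb; Jun-family regions 100 kb, merged at 1 base of overlap). Pileup and background were solved from fold enrichment and p-value, to within 0.01 of the −log10 p, and the code was tested on simulated data. Python 3.11.15 and pysam 0.24.0 were used, with overlaps checked on simulated intervals against bedtools 2.31.1. RefSeq promoters matched 6 of 9 members. For each member the strongest Jun-family region in each line (highest summed fold enrichment of the 3 proteins) is named. The members and gene lists were chosen with earlier results of these data known. No test was run, since each list pools both replicates. The 4 input samples have no list here.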

Additional observations from a re-analysis of the deposited data

How the results depend on the processing

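Of 146 values recomputed under other settings, 136 stayed within 1.5 times the count or, for shares, within the 95% exact binomial interval, which covers counting error only. Members with a JunB promoter peak in A549 fell from 7 to 2 with lists of equal length. Members with a JunB promoter peak in B2B changed from 1 to 0 within 1 kb and to 2 within 5 kb. Members with Jun in B2B went from 5 to 3 within 1 kb. Members with JunD in A549 went from 4 to 1 within 1 kb, to 2 where a −log10 q of 5 was required and to 2 with lists of equal length. The share of A549 JunB summits with an AP-1 site went from 40.8% to 28.2% within 25 bases. In the 1 kb before the starts, TGACGTCA was found in 1 member (5.21% of coding genes) and GCGTG in 8 (86.5%). The shares of shared, A549 and B2B regions moved under none of the settings; leaving out regions within 3 kb of a start was chosen after seeing the data. Whether the peaks hold in each replicate could not be examined, and depth was not given. No paired analysis was possible because each list pools both replicates and no result comes from a test.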
